A study of Monodelphis domestica with 2 samples.

Results

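Oligodendrocyte precursor cells (OPC) were examined among single nuclei from opossum (Monodelphis domestica) area V1, the primary visual field of the cortex. The members were the nuclei that the authors' deposited annotation assigned to the subclass OPC, 1343 of 8267 annotated non-neuronal nuclei and of 32764 annotated nuclei in all. Nuclei came from 2 adult male animals aged 1.5 years (animal 1) and 2 years (animal 2), from a laboratory colony and given no treatment that the labels name, and V1 of both hemispheres was pooled within an animal. Nuclei were sorted on a DNA dye, white matter had been dissected away, and each suspension gave 2 libraries (1A and 1B for animal 1, 2A and 2B for animal 2). The 2 libraries of an animal were therefore 1 replicate, and animal, age and handling cannot be told apart. OPC were described against mature oligodendrocytes (OD, 4047 nuclei), astrocytes (Astro, 2089), microglia (Micro, 723) and endothelial cells (Endo, 65).

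OPC are the glial progenitors that persist in the adult cortex, divide, and give rise to myelinating oligodendrocytes. They respond to platelet-derived growth factor through the receptor PDGFRA, carry the proteoglycan NG2 (CSPG4), and receive synaptic input from neurons. On the way to a myelinating cell they pass through a committed, premyelinating stage that is marked by genes such as TCF7L2, ENPP6 and GPR17.

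Library totals over all nuclei ran from 55625042 to 69706055 unique molecular identifiers (UMIs, each standing for 1 captured transcript). Libraries 1A and 1B gave 381 and 393 OPC, and libraries 2A and 2B gave 251 and 318. Their median depth was 2551 UMIs and 1446 genes per nucleus in animal 1 and 2619 UMIs and 1453 genes in animal 2. The doublet caller Scrublet marked 27 of the 1343 nuclei, and 13 OPC barcodes also occurred in another library. Levels below are CPM values, the UMIs of a gene scaled to a common total of UMIs summed over the nuclei of a subclass (per 1e6), and they compare a gene between cell classes, not different genes with each other. Counting intervals and limits cover counting error only.

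OPC took a similar share of the non-neuronal nuclei in every library. The share was 16.5% in both libraries of animal 1, and 16.0% and 15.9% in those of animal 2, which gave 16.5% in animal 1 (exact 95% binomial interval 15.5 to 17.6) and 15.9% in animal 2 (14.7 to 17.1), a mean of 16.2% ± 0.433 (SD, n = 2 animals). The libraries of an animal did not differ detectably (Fisher's exact test, two-sided, p = 0.969 and 0.963, both 0.969 after Benjamini-Hochberg adjustment). Of all annotated nuclei, neurons included, OPC were 4.82% in animal 1 and 3.40% in animal 2. Sorting and dissection can set these shares.

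The level of marker genes was then listed; such markers helped the authors to name the classes, so these levels are a description and no independent support. Of 10 OPC markers listed, 7 had a gene symbol in the files (VCAN, LHFPL3 and OLIG1 had none), and all 7 were highest in OPC among the 18 annotated subclasses in both animals. PDGFRA, the receptor for platelet-derived growth factor, stood at 955 and 1012 CPM in libraries 1A and 1B and at 973 and 997 in 2A and 2B. In OD its level per library was 1.52 to 2.71 CPM, in Astro 0.768 to 6.06 and in Micro 0 to 28.1. The OPC libraries lay above those of every other class, with 985 ± 0.88 CPM (SD, n = 2 animals) in OPC. At least 1 PDGFRA UMI was found in 87.2% and 86.8% of the OPC of the 2 animals (median depths above), against 2.41% and 0.512% of Micro nuclei at median depths of 1429.5 and 1483 UMIs. With nuclei thinned to 1000 UMIs these shares were 59.8% and 59.9% against 1.55% and 0%. Endo held 3 PDGFRA UMIs, all in library 1A, where the class had 8 nuclei of which Scrublet marked 3.

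Differences were tested on counts summed per animal and subclass with edgeR's quasi-likelihood test and Benjamini-Hochberg adjustment over 13483 genes. Since the subclasses were themselves clusters of these expression profiles, the p-values state only that a difference exceeded the spread between the 2 animals. PDGFRA was higher in OPC by a log2 fold change of 8.77 (SE 0.33) against OD, 8.51 (SE 0.33) against Astro and 6.30 (SE 0.33) against Micro (adjusted p = 1.3e-14, 1.5e-14 and 1.1e-12). TNR, which encodes the matrix glycoprotein tenascin-R, reached 1236, 1289, 1140.5 and 1181 CPM in the 4 OPC libraries. OD stayed between 35.5 and 88.5 CPM. The next highest subclass for TNR was the Pvalb class of interneurons, at 350 and 331 CPM in the 2 animals, so OPC did not overlap with it. BCAN, the chondroitin sulphate proteoglycan brevican, stood at 722, 738, 793 and 841 CPM in the 4 OPC libraries. Astro held 115 to 155 CPM of BCAN and OD 9.5 to 20.7. Both genes were therefore high in every OPC library, but the nearest other glial class was Astro for BCAN (log2 fold change 2.56, SE 0.18) and, among OD, Astro and Micro, OD for TNR (4.32, SE 0.18). Most TNR UMIs of OD came from the 62 nuclei of the type OD_5 described below, and without them the log2 fold change of TNR against OD was 6.64.

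The remaining markers separated OPC from its neighbours to different degrees. PTPRZ1, a receptor phosphatase that also binds matrix, stood at 2655, 2741, 2860.2 and 2901 CPM in OPC and at 1199 to 1277 CPM in Astro, so that its log2 fold change was 1.17 (SE 0.18) against Astro and 6.64 (SE 0.24) against OD. MEGF11, a transmembrane protein with epidermal growth factor-like repeats, went the other way, at 138 to 146 CPM in OD and 5.38 to 20.4 in Astro beside 1330.3 to 1419 in OPC. CSPG4, the NG2 proteoglycan, was low in absolute terms at 26.2, 31.6, 28.4 and 31.2 CPM, but no UMI of it was found in 4047 OD nuclei, which made OPC at least 85.3-fold higher (against a floor of 3 UMIs over the OD of both animals, the floor used for every such bound). OLIG2, a transcription factor of the whole lineage, was detected at only 2.91 to 9.03 CPM in OPC and did not pass the filter on low counts.

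**Figure D1:**
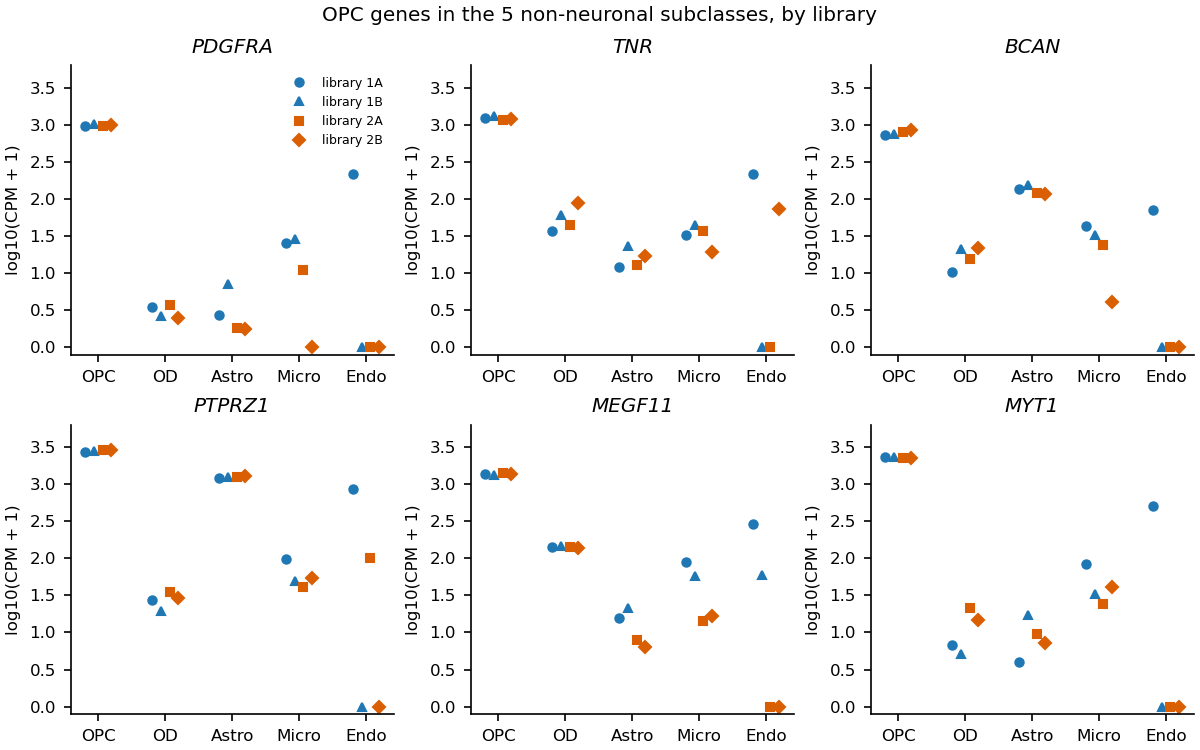
Level of PDGFRA, TNR, BCAN, PTPRZ1, MEGF11 and MYT1 in OPC, OD, Astro, Micro and Endo, with 1 point per library and the vertical axis as log10(CPM + 1). The 4 OPC libraries sit together and above every other class for each gene, and the highest Endo points come from library 1A with its 8 nuclei.

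Many genes separated OPC from each class. Against OD, 3364 genes (24.9% of those tested) were higher in OPC and 2535 (18.8%) lower. Against Astro 19.3% were higher and 17.8% lower, against Micro 23.2% and 18.7%, and against Endo, with its 65 nuclei, 11.6% and 5.54%. With library totals in place of edgeR's scaling, the share of calls that were higher in OPC moved from 55.3% to 44.3% against Micro and from 67.7% to 40.0% against Endo. The median log2 fold change over all tested genes was close to 0 against OD and Astro, 0.09 against Micro and 0.69 against Endo. Fewer genes, 1210 (8.97%), were higher in OPC than in OD, Astro and Micro alike. Of these, 624 had a symbol and at least 20 CPM in OPC of both animals, and their level varied little between libraries (median ratio of highest to lowest library 1.27, under 2 for 600 genes).

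The 15 genes of these 624 that stood furthest above their nearest class were STK32A, TMEM233, PDGFRA, FGD5, PLPP4, ADAMTS2, TMPRSS9, ACAN, COL9A1, MYT1, INAVA, NMBR, TRAPPC3L, THSD1 and CHRNA4. All 15 were also above glutamatergic and GABAergic neurons in both animals, as were 316 of the 624 (50.6%) and 34.6% of all tested genes. MYT1, a zinc finger transcription factor of the oligodendrocyte lineage, stood at 2317, 2333, 2232 and 2204 CPM in the OPC libraries and at 4.06 to 20.6 CPM in OD (log2 fold change 7.67, SE 0.35). ADAMTS2, a protease that trims procollagens, stood at 1378, 1506, 1472 and 1454 CPM in OPC and at 8.6 to 11.6 in OD (7.07, SE 0.23). PLPP4, a lipid phosphatase, stood at 1069, 1009, 1051 and 1070.4 CPM in OPC against 11.1 to 15.4 in Astro (6.26, SE 0.21). Each of these differed between OPC libraries far less than between classes.

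Others in the group encode matrix proteins and receptors. ACAN, the proteoglycan aggrecan, stood at 170.3 to 221 CPM per OPC library and COL9A1, a collagen IX chain, at 192 to 289, and neither exceeded 10.7 CPM in any library of OD, Astro or Micro. NMBR, the neuromedin B receptor, stood at 82.6 to 129 CPM and had no UMI in Micro (OPC at least 38.7-fold higher). CHRNA4, a nicotinic acetylcholine receptor subunit, stood at 92, 113, 87.7 and 117 CPM in OPC (log2 fold change 5.16, SE 0.30, against OD). FGD5, an exchange factor for CDC42, stood at 275 to 299 CPM in OPC but was higher in Endo, with a log2 fold change of -1.16 (SE 0.23, adjusted p = 0.00064).

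Most proteoglycan and matrix genes were higher in OPC, in a list that shares 4 genes with the markers. Of its 12 tested members, 11 were higher in OPC than in OD, 9 higher than in Astro and 11 higher than in Micro (beside 24.9%, 19.3% and 23.2% of all genes), with median log2 fold changes of 4.94, 2.83 and 5.36 (4.92 against Micro with members at 0 UMIs set to their bound). SULF2, a sulphatase that edits heparan sulphate, stood at 255 to 286 CPM in OPC and 9.1 to 18.2 in OD (log2 fold change 4.30, SE 0.21). SMOC1, a secreted calcium-binding protein, stood at 132 to 189 CPM against 16.8 to 42.6 in OD (2.31, SE 0.20). Within OD, SMOC1 stood at 808 and 602 CPM in the small type OD_5, described below, and at 11.6 and 12.1 in OD_1 to OD_4. HAPLN1, a link protein that fixes proteoglycans to hyaluronan, was as high in Astro as in OPC (105 ± 5.19 and 107 ± 4.01 CPM, SD, n = 2 animals). TNC, tenascin-C, was lower in OPC than in Astro by 2.38 on the log2 scale (SE 0.24).

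Growth factor ligands and receptors were found in both directions. Of 27 tested, 16 were higher and 5 lower in OPC than in OD (beside 24.9% and 18.8% of all genes), and 9 were higher and 10 lower than in Astro (beside 19.3% and 17.8%), at median log2 fold changes of 1.77 and 0.18; against Micro, 16 were higher and 3 lower (beside 23.2% and 18.7%). The ligand PDGFA, which binds PDGFRA, stood at 24.5 to 30 CPM per OPC library but at 132 to 166 in OD, and was lower in OPC by a log2 fold change of -2.61 (SE 0.19). PDGFC, a second ligand of that receptor, stood at 59.4 to 69.7 CPM in OPC and was higher in Astro (log2 fold change -2.44, SE 0.18). PDGFRA and these 2 ligands were thus highest in different glial classes. FGFR1 stood at 70.9 to 101 CPM in OPC and at 3.24 to 5.78 in OD (4.17, SE 0.23), while FGFR2 was higher in OD (-1.96, SE 0.17). FGFR3 and EGFR were highest in Astro, at 2.99 and 2.36 on the log2 scale above OPC. NTRK3, the receptor of neurotrophin 3, was higher in OPC than in OD, Astro and Micro (841 to 952 CPM, log2 fold changes 3.36, 1.89 and 3.09). ERBB4, a neuregulin receptor, had 3554 to 4044 CPM in OPC and 7123 to 7840.5 in OD (-1.05, SE 0.18).

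Most genes of ion channels and transmitter receptors were higher in OPC. Of 37 tested, 29 were higher in OPC than in OD, 22 higher than in Astro and 28 higher than in Micro, with 3, 10 and 0 lower (beside 24.9%, 19.3% and 23.2% of all genes higher and 18.8%, 17.8% and 18.7% lower), and 18 were higher than in all 3 classes, beside 8.97% of all genes. The AMPA receptor subunit GRIA4 stood at 1974, 1911, 1777 and 1794 CPM in the 4 OPC libraries against 111 to 163 CPM in OD and 97 to 134 in Astro (log2 fold changes 3.68 and 3.96, SE 0.18 and 0.19). CACNG4, an auxiliary subunit that tunes AMPA receptors, stood at 867, 868, 841 and 849 CPM in OPC and 8.67 to 10.5 in OD (6.41, SE 0.21). GRIK4, a kainate receptor subunit, stood at 1633 to 1797 CPM beside 986 to 1097 in Astro, a log2 fold change of 0.74 (SE 0.14) that was small but present in every library. The voltage-gated sodium channel genes SCN1A and SCN3A stood at 325 to 368 and 228 to 294 CPM in OPC (2.80 and 2.91 above OD on the log2 scale, SE 0.16 and 0.20). The metabotropic receptor genes split, with GRM7 at 930.2 to 1018 CPM in OPC and 83.4 to 93 in Astro, and GRM3 at 22.3 to 99.8 in OPC and 3629 to 4040.1 in Astro. KCNJ10, an inward rectifier potassium channel of glia, was lower in OPC than in OD and Astro (-1.20 and -2.24, SE 0.24 and 0.23).

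Since neurons carry many of the same genes, neuronal markers were set beside this group. Of 10 neuronal markers tested, 4 were higher in OPC than in OD and 1 lower (beside 24.9% and 18.8% of all genes). Against Astro 4 were higher (beside 19.3%) and against Micro 5 (beside 23.2%), with none lower (beside 17.8% and 18.7%). Their summed level was 1426 and 1578 CPM in OPC of the 2 animals, 557 and 766 in OD, 452 and 573 in Astro, and 637 and 837 in Micro. SYT1, a synaptic vesicle calcium sensor, stood in OPC at 27.7% and 31.2% of its level in glutamatergic neurons, and SYT14, of the same family, at 52.1% and 49.6%. By contrast, the excitatory neuron gene SV2B stood at 4.20% and 5.59% of that level, and GAD1 and GAD2 of inhibitory neurons at 1.13% to 3.11% of the level in GABAergic neurons. GRIA4 in glutamatergic neurons was 746 and 826 CPM and in GABAergic neurons 1250.1 and 1071 CPM, below OPC in both animals, and CACNG4 reached at most 77.6 CPM in either neuron class. Of the 37 channel and receptor genes, 8 stood above both neuron classes in both animals, beside 34.6% of all tested genes (GRIA4, GRIK4, GRID1, GABRA3, KCNJ10, KCNJ16, KCNN3 and CACNG4). The part of neuronal RNA in the levels of the 37 genes was not tested.

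Adhesion and guidance genes were likewise higher in OPC. Of 37 tested, 28 were higher and 5 lower than in OD, 30 higher and 3 lower than in Astro, and 31 higher than in Micro with none lower, at median log2 fold changes of 2.24, 1.37 and 2.82. Of all genes, 24.9%, 19.3% and 23.2% were higher and 18.8%, 17.8% and 18.7% lower in these comparisons. In the list, 19 stood above both neuron classes, beside 34.6% of all genes. PCDH15, a protocadherin, stood at 1715, 1742, 1596 and 1683 CPM in OPC and at 45.4 to 60.2 in OD (log2 fold change 4.91, SE 0.19). OPCML, a GPI-anchored cell adhesion molecule, stood at 8543 to 8941 CPM against 621 to 1144 in OD (3.26, SE 0.21). XYLT1, which is counted in this list but is the enzyme that begins glycosaminoglycan chains on proteoglycans, stood at 2180.3 to 2488 CPM against 61.5 to 93.1 in OD (4.88, SE 0.26). In all 3, the lowest OPC library lay above the highest OD library. All 3 were also at least 2-fold higher in the OD type OD_5, described below, than in OD_1 to OD_4 in both animals. NTM, an adhesion protein related to OPCML, was instead higher in Astro (7481 to 8389 CPM) than in OPC (3036 to 3287).

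**Figure D2:**
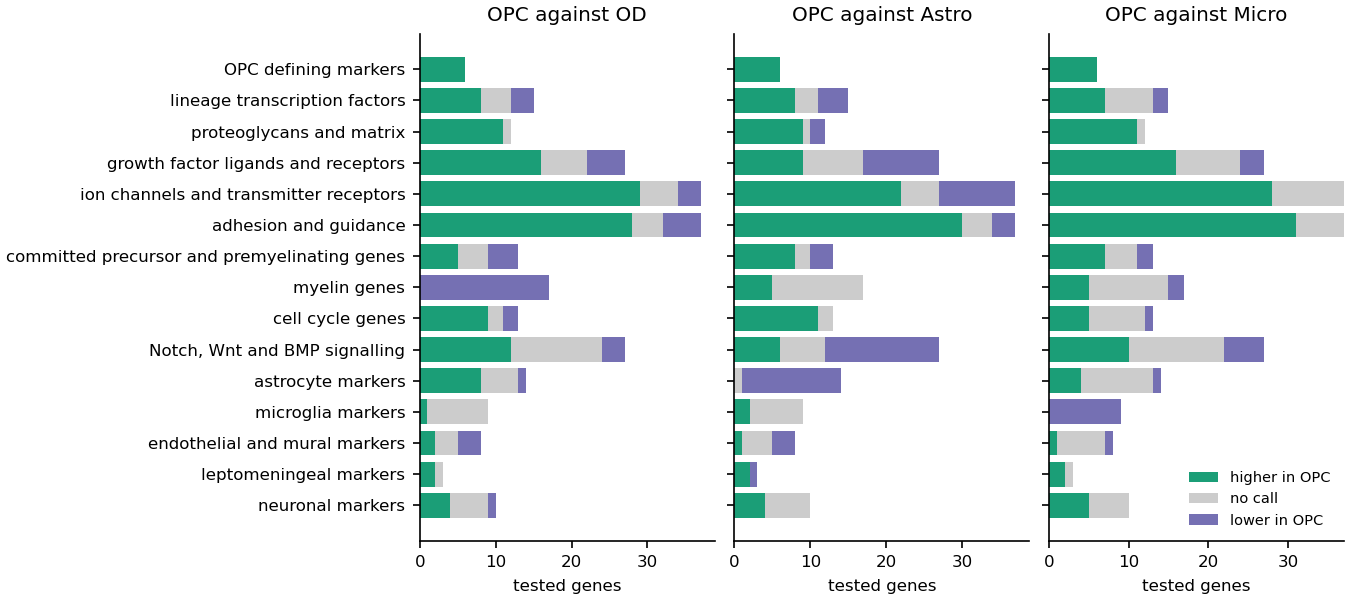
For each gene list, the number of tested genes that were higher, not called or lower in OPC against OD, Astro and Micro (edgeR's quasi-likelihood test, adjusted p under 0.05). Matrix, channel and adhesion genes were mostly higher in OPC against each class, the 17 myelin genes were all lower than in OD, and 13 of 14 astrocyte markers were lower than in Astro.

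Of 15 lineage transcription factors tested, 8 were higher and 3 lower than in OD (beside 24.9% and 18.8% of all genes), and 8 higher and 4 lower than in Astro (beside 19.3% and 17.8%). The median log2 fold changes were 1.00 and 0.73, and 7 were higher and 2 lower than in Micro (beside 23.2% and 18.7%). With nuclei thinned to 1000 UMIs, 5 in place of 8 were higher than in OD. SOX6 and SOX5, SoxD factors that hold precursors back from differentiation, stood at 1613 to 1840 and 1478 to 1611 CPM in OPC. Their log2 fold changes were 4.09 (SE 0.17) and 4.43 (SE 0.17) against OD but 1.53 (SE 0.15) and 0.73 (SE 0.14) against Astro. Without the OD_5 nuclei, which held most SOX6 UMIs of OD, the value of SOX6 against OD was 6.65. NKX2-2, which acts at the onset of differentiation, stood at 75.2 to 84.3 CPM in OPC and 38.5 to 53.1 in OD (0.81, SE 0.18), a call that was lost with equal numbers of nuclei per subclass (0.62, adjusted p = 0.0504). ST18 and ZEB2 were lower in OPC than in OD (-6.23, SE 0.27, and -1.62, SE 0.14).

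TCF7L2, a Wnt pathway factor of the committed stage, was close to level in OPC and OD. It stood at 480.5, 533, 417 and 482 CPM in OPC and at 588, 684, 546 and 617 CPM in OD, a log2 fold change of -0.43 (SE 0.17, adjusted p = 0.042). Without the 62 nuclei of the OD type OD_5 the value was -0.09 and was not called. The call was also lost with labels made from the other genes (-0.08) and with thinning (-0.27). It was lost at values nearer the main one with DESeq2's size factors (-0.39) or Wald test (-0.39), library totals (-0.34), or without Scrublet doublets (-0.42). A TCF7L2 UMI was found in 67.3% and 63.8% of OPC, but also in 75.9% and 67.0% of the shallower Micro, where TCF7L2 was higher than in OPC (-0.77, SE 0.17). With nuclei thinned to 1000 UMIs, it was found in 37.5% and 33.2% of OPC and in 67.1% and 50.1% of Micro.

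Of 27 Notch, Wnt and BMP genes tested, 12 were higher and 3 lower in OPC than in OD (beside 24.9% and 18.8% of all genes), and 6 were higher and 15 lower than in Astro (beside 19.3% and 17.8%). The median log2 fold changes were 0.84 and -0.85, and 10 were higher and 5 lower than in Micro (beside 23.2% and 18.7%). The receptor NOTCH1 stood at 66.8 to 86.5 CPM in OPC, 0.413 to 1.63 in OD and 156 to 166 in Astro. NOTCH2 had the same order, with 123 to 151, 8.67 to 11.1 and 316 to 379 CPM. The ligand DLL1 ran the other way, with 98.8 to 133 CPM in OD and 41.3 to 62 in OPC (log2 fold change -1.25, SE 0.23). The Notch target HES5 and the glycosyltransferase LFNG were Astro genes, at 5.13 and 5.67 below Astro in OPC on the log2 scale. BMPR1B, a BMP receptor, showed a like difference (-4.85, SE 0.21).

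**Figure D3:**
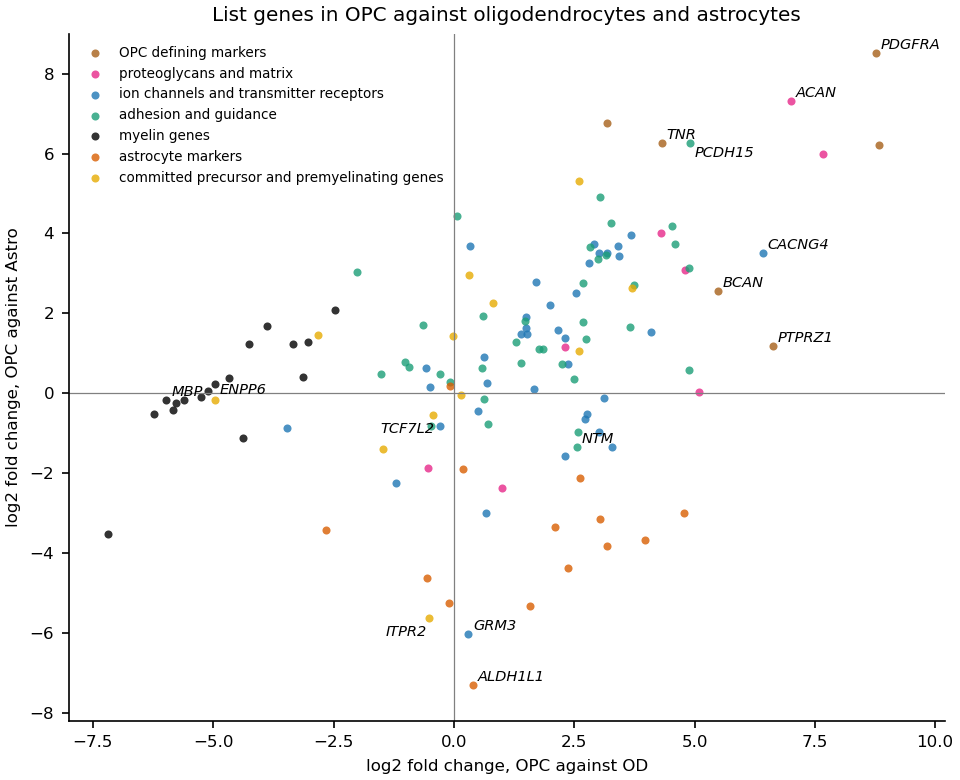
Log2 fold change of OPC against OD (horizontal axis) and against Astro (vertical axis) for tested genes of 7 lists, 1 point per gene, coloured by list. Most matrix, channel and adhesion genes lie at the upper right, the myelin genes at the left and most astrocyte markers at the lower right. The values of CSPG4 and MAL depend on the prior count, since a class held no UMI.

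The largest differences from OD included transcription factors in both directions. Of 1483 named genes higher in OPC than in OD with at least 20 CPM, the 8 largest were PDGFRA, FGD5, COL9A1, MYT1, TRAPPC3L, CSPG4, SCUBE3 and ECEL1; the last 3 had no UMI in OD (OPC at least 85.3-, 79.5- and 79.8-fold higher), so that their rank depends on the prior count. The ECEL1 calls against OD and Astro were lost under DESeq2's Wald test (adjusted p = 0.142 and 0.196). Of 1478 that were lower, the 8 largest were SLC5A11, NUAK2, ST18, ELOVL7, GALNT5, SLC9A3, ARMC3 and CDH3, with log2 fold changes of -6.45 to -6.02. SLC5A11 is an inositol transporter, ELOVL7 elongates long-chain fatty acids, and ST18 is a zinc finger factor of the same family as MYT1. MYT1 and ST18 therefore stood at opposite ends, with ST18 at 22.3 to 62.5 CPM in OPC and 2341 to 2632 in OD. Against Astro, the 8 largest of 1299 higher genes were PDGFRA, FGD5, ADAMTS2, ACAN, MYT1, THSD1, ECEL1 and SLC28A3, where ECEL1 had no UMI in Astro either (OPC at least 54.8-fold higher) and its rank again depends on the prior count. The 8 largest of 1273 lower genes were TIFAB, FAM187A, LAMA1, ALDH1L1, SLC25A48, SLCO1A2, YAP1 and SLC39A12, of which TIFAB and FAM187A had no UMI in OPC (at least 62.1- and 38.4-fold lower).

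Myelin genes were lower in OPC than in OD without exception. All 17 tested passed the test, with a median log2 fold change of -4.97 (-4.67 with MAL, at 0 UMIs in OPC, set to its bound), beside 18.8% of all genes. MBP, myelin basic protein, stood at 169, 163, 133 and 268 CPM in OPC and at 10723 to 11019.5 CPM in OD (-5.97, SE 0.30). An MBP UMI was found in 12.0% and 16.2% of OPC, beside 24.4% and 30.7% of Micro and 9.43% and 8.82% of Astro (after thinning 5.94% and 8.44% beside 19.3% and 23.2%, and 5.50% and 4.53%). The shares of OPC thus lay between those of 2 classes that do not make myelin, and no MBP expression is read from them. In 5 myelin genes OPC were higher than Astro, beside 19.3% of all genes (8 without the nuclei that Scrublet marked). MOG, a surface glycoprotein of myelin, stood at 45.2 to 91.1 CPM in OPC and 21.4 to 48.5 in Astro (1.24, SE 0.24), UGT8, which makes galactosylceramide, at 91.6 to 141 and 26.9 to 53.8 (1.68, SE 0.19), and PLLP, plasmolipin, at 64.9 to 80.5 and 13.8 to 21.3 (2.08, SE 0.20). The part of OD transcripts in these 5 differences was not tested.

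Some genes were shared by OPC and OD against the other glia. In all, 497 genes (3.69%) were higher in both than in Astro and in Micro. Ranked by their smallest difference in these comparisons, the 8 leading of 274 named genes were LIMS2, HTRA1, SEMA5A, TREH, SEMA3E, PHLDB1, CES2.1 and RPS6KL1. HTRA1, a secreted serine protease, stood at 403 to 459 CPM in OPC, 526 to 545 in OD and 12.8 to 20.1 in Astro. SEMA5A, a guidance cue of the lineage, stood at 712 to 800.1 CPM in OPC, 628 to 746 in OD and 28.2 to 39.6 in Astro. These 2 genes were nearly level across the lineage. SEMA3E was higher in OPC than in OD (1.58, SE 0.25) and PHLDB1 higher in OD (-1.33, SE 0.17).

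OPC also carried astrocyte genes at a fraction of the astrocyte level. Of 14 astrocyte markers, 13 were lower in OPC than in Astro (median log2 fold change -3.55, beside 17.8% of all genes lower) and 8 were higher than in OD (beside 24.9%). Against Micro, 4 were higher and 1 lower (beside 23.2% and 18.7%). Their summed level was 2184 and 2026 CPM in OPC, 695 and 720 in OD, 1984 and 1331 in Micro, and 24194 and 23088 in Astro. The glutamate transporter genes SLC1A2 and SLC1A3 stood at 8.10% and 7.48%, and at 11.6% and 11.0%, of the Astro level, while ALDH1L1, which defines astrocytes, stood at 0.576% and 0.658%. SLC1A2 was 1097 to 1302 CPM in OPC and 50 to 98.2 in OD. The part of astrocyte RNA in these levels was not tested. Of 9 microglial markers tested, 1 was higher than in OD, 2 higher than in Astro and all 9 lower than in Micro, beside 24.9%, 19.3% and 18.7% of all genes. Of 8 endothelial and mural markers, 2 were higher and 3 lower than in OD, beside 24.9% and 18.8% of all genes. The 3 leptomeningeal markers tested included PDGFRA, and the collagen genes COL1A1 and COL3A1 of that cell type did not pass the filter on low counts.

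The list of committed and premyelinating genes includes BCAN, which is also an OPC marker. Of 13 tested, 5 (BCAN among them) were higher and 4 lower in OPC than in OD (beside 24.9% and 18.8% of all genes). Against Astro 8 were higher and 3 lower (beside 19.3% and 17.8%), and against Micro 7 and 2 (beside 23.2% and 18.7%), with median log2 fold changes of 0.15, 1.43 and 2.11. TNS3, an adaptor of integrin adhesions, and TMEM163, a zinc transporter, were higher in OPC than in OD (3.70, SE 0.22, and 2.59, SE 0.19). Both were also at least 2-fold higher in the OD type OD_5, described below, than in OD_1 to OD_4, and OD_5 is part of the OD sums. NFASC, an adhesion molecule of myelinated axons and their glia, and ENPP6, a choline phosphodiesterase of newly forming oligodendrocytes, were lower (-2.81, SE 0.16, and -4.96, SE 0.31). An ENPP6 UMI was found in 1.03% and 1.58% of OPC and in 21.0% and 29.3% of OD (0.258% and 0.879% against 12.4% and 17.4% after thinning). FYN, a Src family kinase, did not differ detectably (0.15, SE 0.15), but the OD sums include the OD_5 nuclei described below, where FYN was high. Without those nuclei, 6 genes of the list in place of 5 were higher in OPC than in OD.

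Some of these genes were highest in a small OD cluster. OD_5 held 62 nuclei (34 and 28 in the 2 animals, 1.49% and 1.58% of OD), of which Scrublet marked 7. Since a type is a cluster of the same profiles, its levels are a description with no test. TCF7L2 stood at 5400 and 4754 CPM in OD_5 of the 2 animals, against 510 and 450 in the main OPC type OPC_1 and 505 and 456 in the types OD_1 to OD_4. ENPP6 stood at 1014 and 735 CPM against 4.38 and 8.98 in OPC_1 and 138 and 207 in OD_1 to OD_4. NFASC reached 6498 and 5197 CPM and FYN 5629 and 5463, each above both neighbours. Of the 14 committed genes with a symbol, 9 had at least 3 UMIs in OD_5 of both animals. A gene that is low in the other types can reach that number only by being high in OD_5, so the counts are a description. Of the 9, 8 (BCAN, also an OPC marker, among them) were at least 2-fold above OD_1 to OD_4 in both animals. At least 2-fold above OPC_1 were 6, beside 16.3% and 11.2% of the 4446 genes with that many UMIs. Other committed genes had few UMIs in OD_5, where 3 counts equal 22.9 and 26.6 CPM. BMP4 and SOX11 had no UMI, and CNKSR3 and ITPR2 had at most 2 UMIs in an animal. BMP4 and SOX11 lay under those 2 values in OPC_1 too, so this depth cannot show whether they were lower in OD_5.

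Some genes that were high in OPC were also high in OD_5 and low in the other OD types. SOX6 stood at 2570 and 3046 CPM in OD_5 and at 18.3 and 13.2 in OD_1 to OD_4, TNR at 1464 and 1788 against 8.83 and 14.3, and TNS3 at 1457 and 1700 against 13.7 and 18.1. Other OPC genes were not: PDGFRA had 15.3 and 26.6 CPM and a UMI in 3 of 62 nuclei, CSPG4 had no UMI, and PTPRZ1 and SOX5 stood at 221 and 328, and at 68.6 and 168 CPM, against 2737 and 2935, and 1551 and 1575, in OPC_1. Of the 7 OPC markers with a symbol, only BCAN, TNR, PTPRZ1 and MEGF11 had at least 3 UMIs in OD_5 of both animals. These 4 were at least 2-fold above OD_1 to OD_4 in both animals, beside 16.3% of the 4446 genes with that many UMIs. None of the 4 was 2-fold above OPC_1 (beside 11.2%). A gene low in OD_1 to OD_4 can reach that number only by being high in OD_5, so these counts too are a description. MBP stood at 8672 and 7446 CPM, far above OPC_1 and below OD_1 to OD_4. GPR17, a receptor of committed precursors, gave 3 and 2 UMIs.

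**Figure D4:**
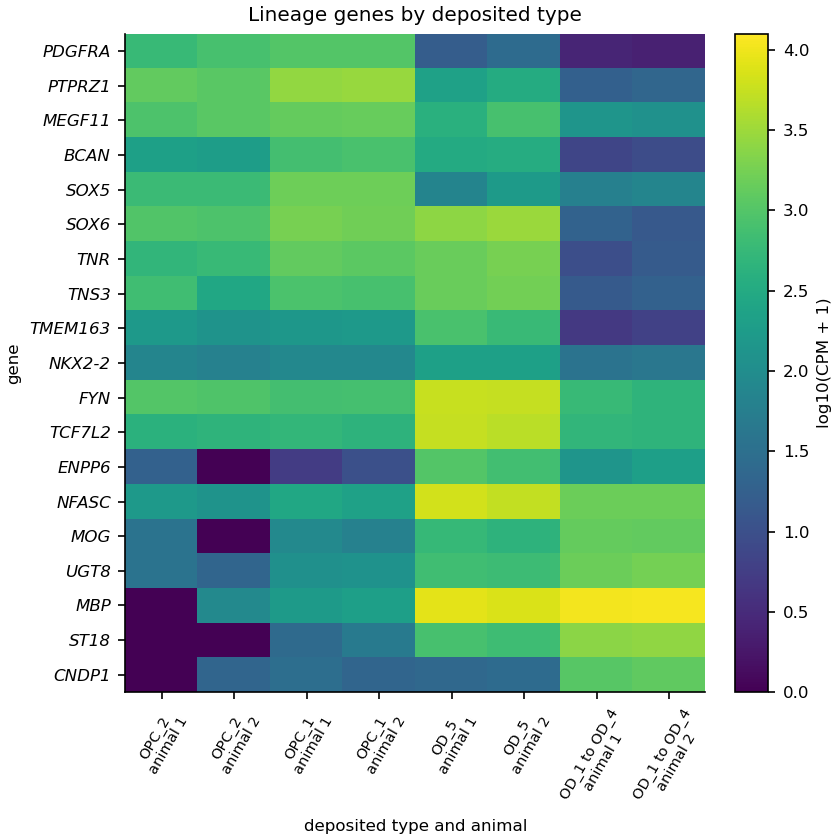
Levels of 19 lineage genes in the types OPC_2, OPC_1, OD_5 and OD_1 to OD_4, by animal, as a colour scale of log10(CPM + 1). PDGFRA is high in the OPC types, SOX6 and TNR reach into OD_5, TCF7L2, ENPP6, NFASC and FYN peak in OD_5, and MBP and ST18 are highest in OD_1 to OD_4.

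OPC themselves were deposited as 2 types, OPC_1 with 1317 nuclei and OPC_2 with 26. OPC_2 held 5, 8, 5 and 8 nuclei in the 4 libraries, which was 1.68% of OPC in animal 1 (exact 95% interval 0.897 to 2.86) and 2.28% in animal 2 (1.22 to 3.88). Cell cycle genes were high in this type. Over the 22 cell cycle genes with a symbol, an OPC_2 nucleus held a median of 17.5 UMIs (7 to 48) and an OPC_1 nucleus a median of 0 (0 to 17), with 82.3% of OPC_1 at 0. At least 10 such UMIs were found in 23 of the 26 OPC_2 nuclei, in 3 of 1317 OPC_1 nuclei, all from library 1B, and in no annotated OD, Astro, Micro or Endo nucleus. By this count, 1.94% of OPC in animal 1 and 1.93% in animal 2 were in the group.

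In OPC_2, 13 of the 22 cell cycle genes had at least 3 UMIs in both animals. A gene that is low in OPC_1 can reach that number only by being far higher in OPC_2, so the levels of these 13 are given as a description. ASPM, a spindle protein, stood at 1205 and 1026 CPM in OPC_2 against 11.2 and 6.41 in OPC_1. TOP2A, the topoisomerase that untangles chromosomes, stood at 594 and 523 CPM against 3.90 and 0.641, and DIAPH3, a formin, at 720 and 796 against 19.0 and 16.7. The mitotic motor KIF11 and the checkpoint kinase BUB1 stood at 468 and 398, and at 342 and 419 CPM. Of the replication licensing genes, MCM4 was among the 13, while MCM3 and MCM6 had no UMI in OPC_2, where 3 counts equal 54.0 and 62.8 CPM.

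OPC markers were found in OPC_2 at varying levels. PDGFRA was found in 24 of 26 nuclei at 576 and 816 CPM, beside 995 and 991 in OPC_1. BCAN (216 and 188 against 744 and 837 CPM), TNR (504 and 586 against 1284 and 1179) and PTPRZ1 (1313 and 1130 against 2737 and 2935) were each at least 2-fold lower in both animals, as were SOX5, NTM, UNC5C, SCN1A, SCN3A and COL9A1. The share of all genes that were 2-fold lower in OPC_2 was not counted, so these genes are a description. CSPG4 was higher instead, at 54.0 and 83.7 CPM against 28.2 and 28.2, on only 3 and 4 UMIs. For NTM the levels were 558 and 670 CPM against 3304 and 3149. The transcription factor gene NFIB (1565 and 1800 against 604 and 712 CPM) and the cadherin gene CDH13 (1655 and 1361 against 571 and 524) were at least 2-fold higher, as were 17.7% of the 2921 genes with at least 3 UMIs in OPC_2 of both animals. The nuclei were deeper, with medians of 4324 and 3193 UMIs, and had median Scrublet scores of 0.0736 and 0.0835 beside 0.00719 and 0.00625 in OPC_1, although none was called a doublet. Of astrocyte markers, SLC1A2 stood at 2518 and 1800 CPM, and a UMI was found in 14 of the 26 nuclei for SLC1A3, 2 for AQP4, 1 for ALDH1L1 and none for GFAP, beside 55.3%, 5.16%, 0.456% and 1.59% of OPC_1. FLT1 of endothelium and CSF1R of microglia had no UMI in the 26, beside 10.1% and 0.759% of OPC_1. The part of other cell types in OPC_2 was not tested.

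**Figure D5:**
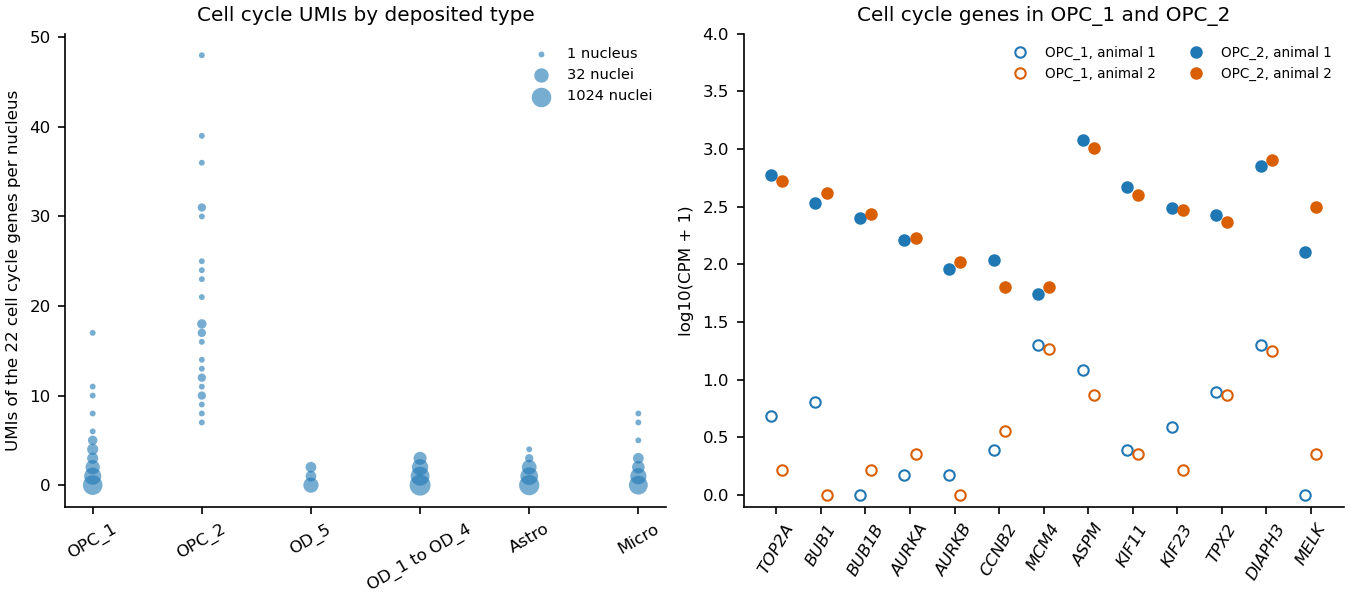
Cell cycle UMIs per nucleus by type (left), as points sized by the number of nuclei, and the level of 13 cell cycle genes in OPC_2 (filled) and OPC_1 (open) by animal, as log10(CPM + 1) (right). OPC_2 nuclei hold 7 to 48 UMIs of these genes while the medians of the other types are 0, and every filled point lies above the open points of its gene; the genes shown were chosen by their UMIs in OPC_2.

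Over the whole subclass, of 13 cell cycle genes tested, 9 were higher in OPC than in OD and 11 higher than in Astro (beside 24.9% and 19.3% of all genes; median log2 fold changes 2.14 and 2.57), with 2 and 0 lower, and 5 were higher and 1 lower than in Micro (beside 23.2% and 18.7%). Without OPC_2, a cluster in which these very genes were high, 3 were higher than in OD and 3 higher than in Astro. Thinning to 1000 UMIs also gave 3 and 3, and equal numbers of nuclei per subclass gave 6 against Astro. TOP2A stood at 12.6, 26, 19.4 and 13.2 CPM in OPC and had no UMI in OD (at least 51.7-fold higher), and a UMI was found in 1.81% and 2.11% of OPC against 0 of 2280 and 0 of 1767 OD nuclei. ASPM stood at 34.8 to 50.1 CPM in OPC and 11.1 to 17.0 in OD (1.28, SE 0.28), but without OPC_2 its log2 fold change against OD was -0.85.

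Between the animals, OPC differed in few genes by a wide margin. Of 6704 genes with at least 20 CPM in OPC of either animal, the libraries of the animals did not overlap for 41.2%, but for only 71 (1.06%) was the ratio also at least 2, of which 40 were higher in animal 1. With 2 animals this cannot be tested. A floor of 50 CPM in place of 20 left 13 genes in place of 71. The named genes with the largest ratios were KCNG1, CALD1, ACADL, RHPN2 and AQP4 in animal 1 and PNPLA1, NOL11, OTOF, NT5DC4 and SCG2 in animal 2. PNPLA1, a lipid-metabolising enzyme, stood at 9.01 CPM in animal 1 and 92.7 in animal 2, a ratio of 10.3. AQP4, the water channel of astrocytes, stood at 27.5 and 9.95 CPM in OPC and at 197 and 201 in Astro, and at 18.9 and 6.38 in Micro, so that OPC and Micro of animal 1 were higher and Astro were level. KCNG1, a modifier subunit of potassium channels, stood at 49.8 and 13.7 CPM.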

How the data were processed

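Per the labels and the study's methods, the authors sorted nuclei, prepared 10x libraries and aligned reads, introns included, to the ASM229v1 assembly and an Ensembl annotation with lengthened 3′ ends, using Cell Ranger (6.1.1 in the processing notes, 7.1.0 in the matrix headers). They kept nuclei with over 700 genes and left doublet and ambiguous clusters without a label (981 non-neuronal nuclei). The deposited matrices hold raw UMI counts, and the deposited metadata hold subclass, type and the authors' doublet score for each nucleus (a Scrublet value given as a fraction from 0 to 1). Of 30800 genes, 11576 had a symbol of their own in the files, and gene names were taken only from there. No sequences are shown.

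Here counts were summed per animal and subclass (10 sums) and fitted together in edgeR 4.0.16 under R 4.3.3 with TMM scaling, the filterByExpr low-count filter and the quasi-likelihood test (adjusted p under 0.05). Nuclei called doublets by Scrublet were kept. Named genes were the 15 with the largest smallest log2 fold change against OD, Astro and Micro, the 8 largest each way against OD and Astro, the 8 shared with OD and the 5 with the largest ratio each way between animals, among called genes with a symbol and at least 20 CPM; types, shares and all other members of the gene lists were described by counts. Members and lists were chosen with earlier results of these data known. Libraries of an animal came from 1 suspension, so the sums pair by animal; the deviations of same-animal sums correlated at 0.0252 to 0.191 (median 0.0745 over 13483 genes). On simulated counts, the test recovered 78% of 2-fold and 91% of 4-fold changes (100 genes each) for OPC against OD, with 18 false calls among 12782 genes. DESeq2 1.42.0, other scalings and filters, thinning, equal numbers of nuclei and labels made from other genes were alternatives. Values were summarised in Python 3.11.15.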

Additional observations from a re-analysis of the deposited data

How the results depend on the processing

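Of 7698 values recomputed under an alternative for 560 single-gene differences, 7572 kept call and direction, 123 lost the call and 3 reversed. Of the reversed, none passed the threshold in the new direction. They were MBP against Micro with labels made from other genes (0.17) and, without OPC_2 nuclei, ASPM against OD (-0.85) and DIAPH3 against Astro (-0.13). Nuclei thinned to 1000 UMIs gave 5 lineage factors higher than in OD and 3 cell cycle genes higher than in each of OD and Astro. Without OPC_2 those cell cycle counts were 3 and 3, and equal nuclei per subclass left 6 against Astro. Without Scrublet doublets, 8 myelin genes were higher than in Astro. The OPC share was 14.5% with left-out nuclei in the denominator and 4.11% of all labelled nuclei. Requiring 2 UMIs, or thinning, gave shares of 34.1% and 35.3% for TCF7L2, 0.393% and 0.569% for ENPP6, 3.51% and 7.19% for MBP, and 1.39% and 0.938% for TOP2A. With at least 50 CPM, 13 genes differed 2-fold between animals. The cause was not tested beyond what each alternative removes.

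With animal as a replicate block, 6407 genes differed between OPC and OD (5899 without), and no single call named here was lost. Against Endo, calls higher in OPC were 61.2% with DESeq2's size factors and 48.2% with its Wald test; library totals shifted the median by -0.68 there and by -0.24 against Micro. Leaving out an animal left no residual degrees of freedom, so single values only were recomputed, and equal nuclei were not run for Endo. Removing OPC_2 or OD_5, counting nuclei with 10 or more cell cycle UMIs in place of the label OPC_2, and scaling by totals were chosen after seeing the data. Depth limits genes under about 3 UMIs per sum, and most type values.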

Other observations

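Cell cycle UMIs were also seen in nuclei that the authors left without a label. At least 10 UMIs over the 22 cell cycle genes were found in 11 of 276 ambiguous non-neuronal nuclei (highest 31) and in 1 of 705 nuclei of doublet clusters (highest 13). These nuclei belong to no subclass and entered no comparison.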
